A study of Mus musculus with 32 samples.

Results

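The genes described here are 41 genes of DNA replication and S phase, chosen by symbol for their known roles. They cover the subunits of the replicative helicase, origin licensing, polymerases and primase, the sliding clamp and its loader, lagging-strand processing, nucleotide supply, G1/S control and replication-coupled chromatin. On the array they were represented by 55 probes among 39429, and 32 of the 41 genes passed the filter on dim probes, out of 15159 genes tested in all. Blood came from male C57BL/6 mice by cardiac puncture 24 h after X-rays or mock irradiation, 1 array per mouse. The groups were wild type at 0 Gy (WT, n = 6) and at 8 Gy (n = 5), ATM-/- mice at 0 Gy (Atm, n = 5) and at 4 Gy (n = 6), and Scid mice at 0 Gy (n = 5) and at 3 Gy (n = 5). ATM is a kinase that signals DNA double-strand breaks, and Scid mice carry a mutation in Prkdc, whose product takes part in joining broken ends. Each genotype received its own dose, described as the LD50/30 (the dose lethal to about 1 mouse in 2 within the following month), so genotype and dose change together and cannot be told apart. Both mutations are present in every cell, also in the unirradiated mice of those genotypes, and the blood was stabilised whole, so leukocytes, platelets and red cell precursors were measured together.

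Replication begins when origins bound by the origin recognition complex are loaded with the ring of Mcm2 to Mcm7 by Cdc6 and Cdt1, a step that geminin blocks. Cyclin E with its kinase then fires the origins, Cdc45 and the GINS complex turn the ring into an active helicase, and polymerases copy the strands behind it while ribonucleotide reductase and thymidylate enzymes supply the nucleotides. Many of these genes are transcribed in late G1 under E2F factors, so their RNA marks proliferating cells. Most circulating leukocytes do not divide, and the youngest red cells still carry RNA from their last divisions in the marrow.

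Levels are log2 processed signals with the 75th percentile of each array set to 0, differences are log2 differences between group means, and a gene was called at a limma p under 0.05 after Benjamini-Hochberg adjustment over the 15159 genes. A probe is called detected on an array where the scanner marked it as well above background, which held for at most 58.6% of probes on any array. The 75th percentile of the signal was 127 to 232 in WT at 8 Gy against 24.1 to 203 at 0 Gy, so irradiated WT arrays were brighter. Blood markers fitted the labelled tissue: 15 of 20 erythroid genes and 7 of 7 platelet genes were detected on all 32 arrays. Bright liver genes, with a median over 5 hepatocyte genes from 8.57 to 9.76, marked 4 arrays: Atm 4 Gy replicate 3, replicate 5 of the WT controls, and replicates 1 and 2 of WT at 8 Gy. These 4 are called liver-bright where they matter. Liver signal was not confined to them. The same median was 5.98 on Atm 4 Gy replicate 5 and 4.78 on Atm 0 Gy replicate 2. It was 5.38 and 3.70 on WT 0 Gy replicates 2 and 4, and 3.39 on WT 8 Gy replicate 3. Those arrays stay in the fits made without the liver-bright arrays. In Scid at 0 Gy, replicate 5 stood apart for several members. Arrays lay on 9 slides scanned on 4 days.

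For 9 members no probe was detected on 4 or more arrays of one group, and they were not tested: Gins1, Orc1, Cdc6, Gmnn, Pola1, Pole, Rfc3, Ccne2 and Chaf1a. Of these, Orc1 (origin recognition), Cdc6 (helicase loading) and Ccne2 (a cyclin E) were detected on 0 of 32 arrays. Their partner in loading, Cdt1, was detected on 29 arrays. Of the 32 tested genes, 9 were detected on all 32 arrays. The undetected probes of Orc1 and Ccne2 had WT means of -3.28 and -4.11 at 0 Gy and of -4.72 and -5.52 at 8 Gy. A lower scaled value in WT at 8 Gy can thus come from a probe without detected signal. E2f2, Lig1, Ccne1 and Rrm2, described below, were among the 9 genes detected on every array.

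In WT blood, 6 of the 32 tested members were lower at 8 Gy than at 0 Gy and 0 were higher, beside 6.07% of all genes called lower and 1.13% called higher. The 6 were E2f2, Uhrf1, Mcm2, Lig1, Ccne1 and Rrm2. The other 26 tested members did not pass the test. Over the 32 members the median difference was -0.27, beside -0.02 over all genes, and 23 of 32 means were below 0, beside 51.2% of all genes. At an unadjusted p under 0.05, limma gave 7 members lower and 0 higher, beside 14.8% and 5.94% of all genes. For 2 members, E2f2 and Mcm2, every irradiated array lay below every control array, and for 0 members above, beside 3.87% and 1.19% of all genes. Without WT 0 Gy replicate 5 the groups separated for 5 members, all lower, beside 9.24% of all genes. The median over the members was -0.37 to -0.09 with 1 array left out, moving most without WT 0 Gy replicate 1 (-0.17) and WT 8 Gy replicate 2 (-0.09), and -0.08 without the 4 liver-bright arrays (0.07 over all genes). It was -0.27 and -0.32 within scan days 1 and 2, and 0.25 and -0.69 on the 2 slides that held 1 array of each dose. In bulk blood, fewer cells of a type and less RNA per cell cannot be told apart.

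**Figure D1:**
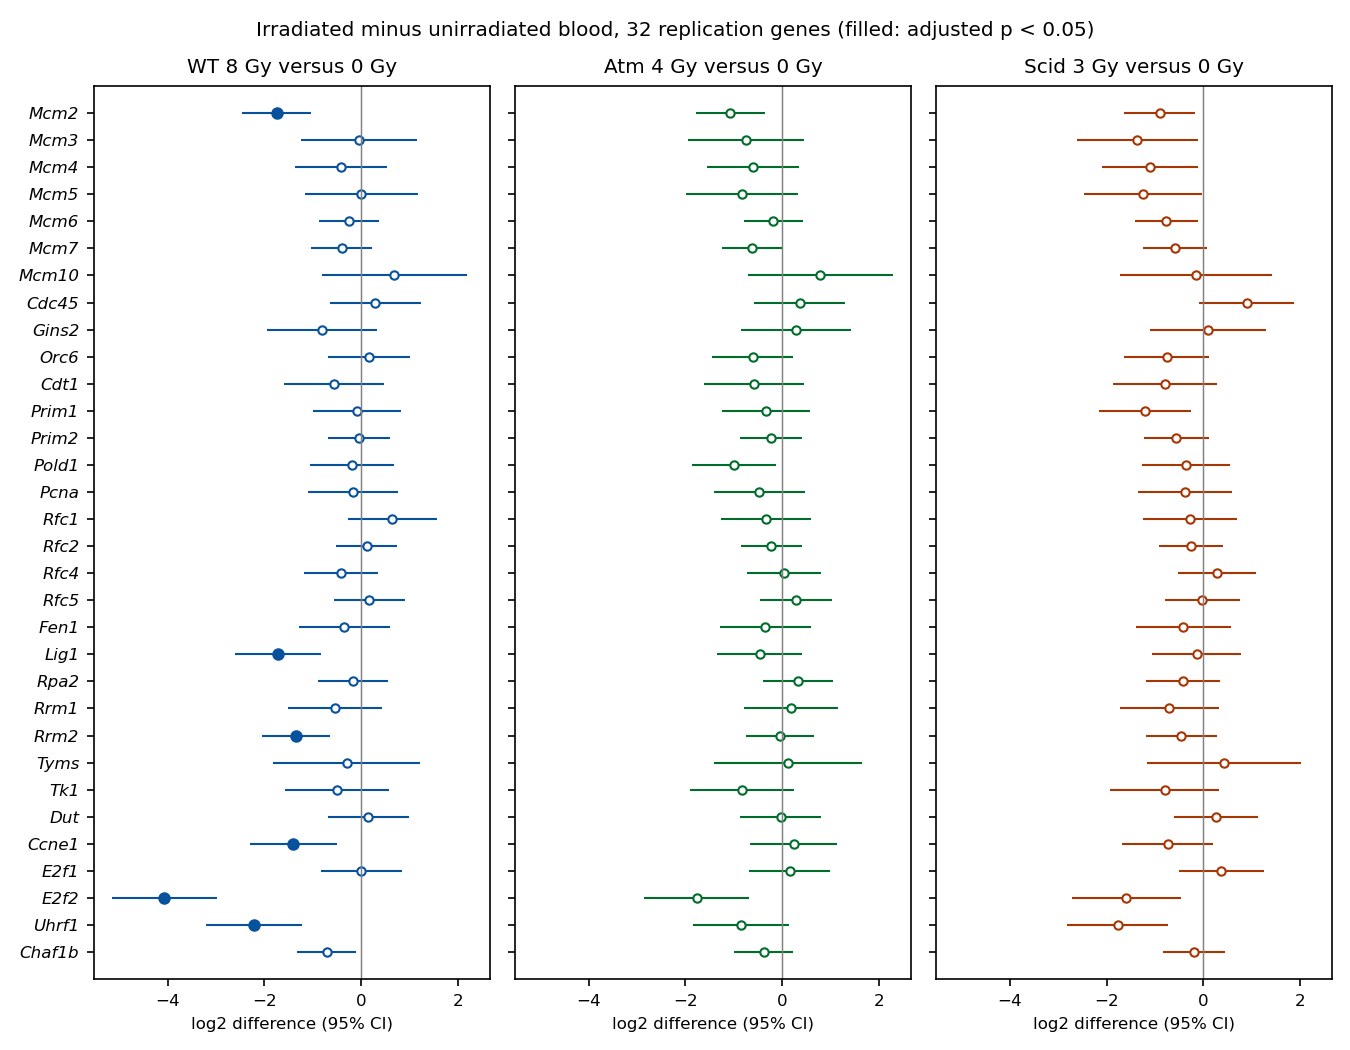
Log2 difference between irradiated and unirradiated blood (x axis) for each of the 32 tested members (y axis, ordered by role) in WT, Atm and Scid mice, with 95% confidence intervals and filled points where the adjusted p was under 0.05. Filled points appear only in WT, for Mcm2, Lig1, Rrm2, Ccne1, E2f2 and Uhrf1, and E2f2 lies farthest from 0 at -4.07.

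Among the G1/S regulators, E2f2 had the largest difference of all members. E2f2 encodes an E2F transcription factor, and its probe lies at chr4:135750562-135750621 (mm9). In WT at 0 Gy its level ran from 6.17 to 8.58 with a median of 7.87, and at 8 Gy the 5 arrays read 3.26, 2.55, 3.43, 4.09 and 4.47. All irradiated arrays were below all controls, and the lowest control was the liver-bright replicate 5. The difference was -4.07 ± 0.53 (SE), with a 95% interval from -5.15 to -2.98 and an adjusted p of 3.87e-06, which is a 16.8-fold lower signal. Ccne1, which encodes the cyclin E that drives entry into S phase, ran from 0.41 to 2.18 (median 1.21) at 0 Gy and read -1.85, -0.63, 0.47, 0.39 and 0.75 at 8 Gy. These groups overlapped, and the 2 lowest values were the liver-bright arrays. Its difference was -1.40 ± 0.44 (adjusted p 0.0475), the call nearest the threshold, and without the 4 liver-bright arrays it was -0.74 (adjusted p 0.485, and from 0.00768 to 0.823 over all the other settings). The call was also lost in 6 of the 11 fits that left out 1 array, without WT 0 Gy replicates 1, 3, 4 or 6 and without WT 8 Gy replicates 1 or 2. E2f1, the other E2F member, had a difference of 0.01 (95% interval -0.83 to 0.85).

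**Figure D2:**
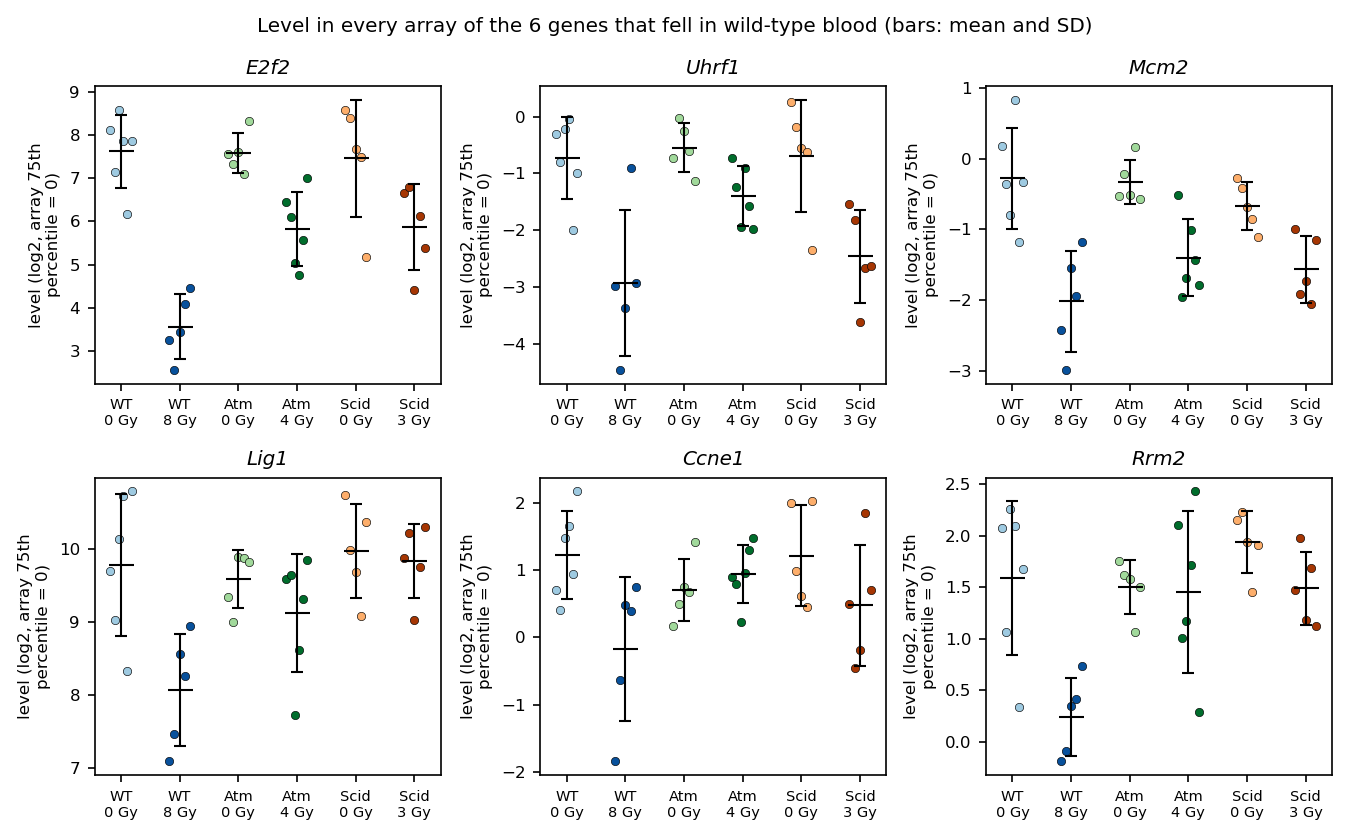
Level (y axis, log2 relative to the 75th percentile of the array) of the 6 members that fell in WT blood, in each of the 32 arrays by group (x axis), with the mean and SD as bars. For E2f2 the 5 WT arrays at 8 Gy, from 2.55 to 4.47, sit below the 6 controls, which start at 6.17, and the means of Atm at 4 Gy and Scid at 3 Gy are 5.82 and 5.88.

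Of the chromatin factors, Uhrf1, which brings the maintenance DNA methyltransferase to newly copied DNA, was lower at 8 Gy. Its levels in WT at 0 Gy ran from -1.99 to -0.04 (median -0.55), and at 8 Gy they were -2.98, -4.46, -3.38, -0.91 and -2.93. The groups overlapped only through replicate 4 at 8 Gy, which lay above the 2 lowest controls. Uhrf1 was detected on 2 of the 5 irradiated arrays and on 5 of 6 controls, so its low values are close to the limit of detection. The difference was -2.21 ± 0.49 (adjusted p 0.00311). Chaf1b, a subunit of the chromatin assembly factor that deposits histones behind the fork, had a difference of -0.71 (95% interval -1.32 to -0.10), which did not pass (adjusted p 0.16).

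Within the helicase, 1 of the 6 ring subunits was called in WT. Mcm2 ran from -1.18 to 0.83 (median -0.35) at 0 Gy and read -2.43, -2.99, -1.54, -1.94 and -1.19 at 8 Gy. The groups did not overlap, with the highest irradiated array at -1.19 just under the lowest control at -1.18. Its difference was -1.74 ± 0.35 (adjusted p 0.000975), a 3.35-fold lower signal. The other ring subunits had differences of -0.04 (Mcm3), -0.42 (Mcm4), 0.01 (Mcm5), -0.24 (Mcm6) and -0.40 (Mcm7), none called. Their intervals differed in width, from -0.86 to 0.38 for Mcm6 and from -1.20 to 1.16 for Mcm3, so moderate changes of Mcm3, Mcm4 and Mcm5 were not detectable with these arrays. A second probe of Mcm3 had a difference of -0.12. Whether Mcm2 differed from the other subunits in its response was not tested. Of the factors that activate the ring, Cdc45 had a difference of 0.30, Gins2 of -0.80 and Mcm10 of 0.69 (95% interval -0.81 to 2.19), none called. Mcm10 was detected on 2 of 6 controls and on 4 of 5 irradiated arrays, and passed the filter only through the irradiated WT group.

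**Figure D3:**
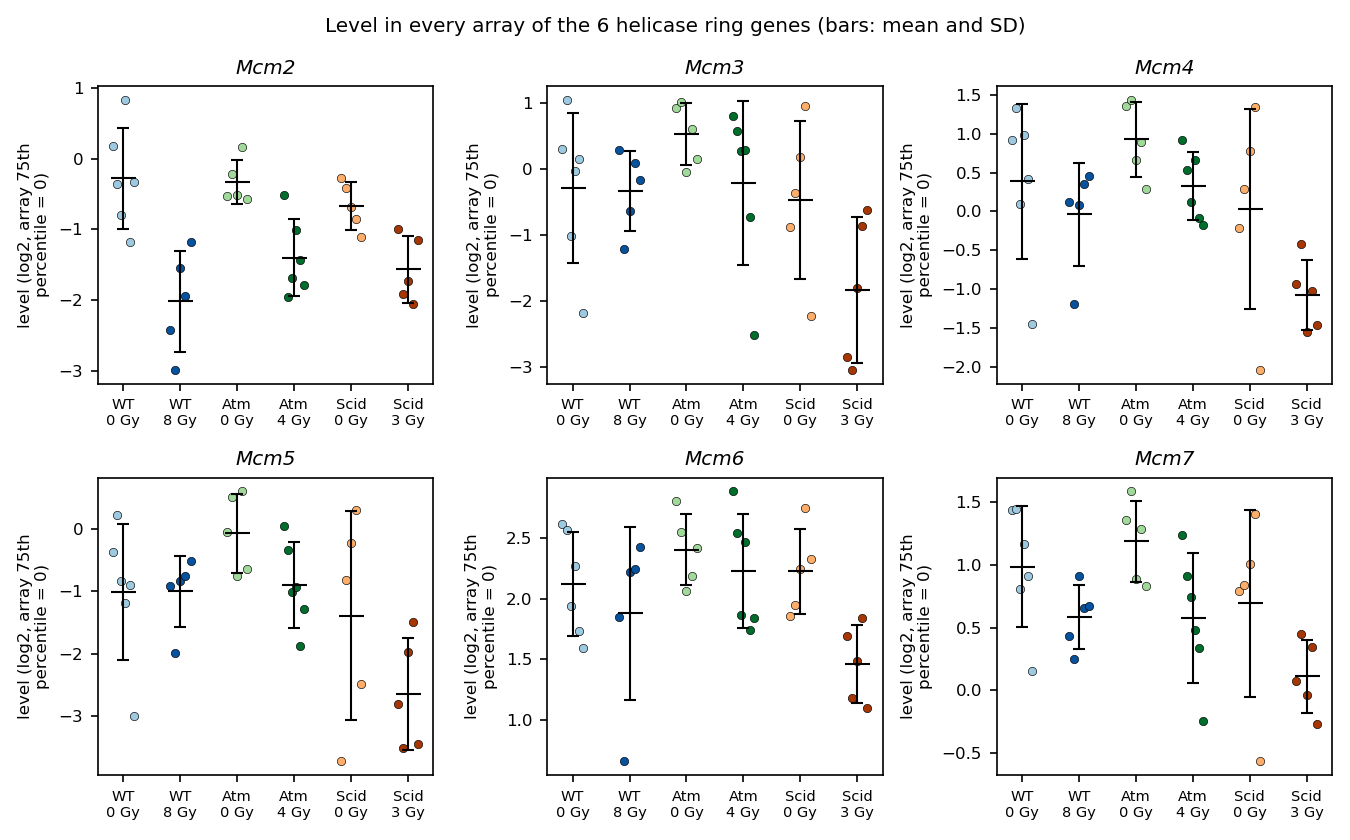
Level (y axis, log2 relative to the 75th percentile of the array) of the 6 helicase ring genes in each of the 32 arrays by group (x axis), with the mean and SD as bars. In WT the 2 groups separate for Mcm2 only, and in Scid the 3 Gy arrays of Mcm6, from 1.1 to 1.84, lie below the 0 Gy arrays, which start at 1.86.

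For lagging-strand processing, Lig1, the ligase that seals Okazaki fragments, was lower in irradiated WT blood. It ran from 8.33 to 10.79 (median 9.91) at 0 Gy and read 7.09, 7.47, 8.56, 8.26 and 8.94 at 8 Gy. The groups overlapped through control replicate 5, and the lowest irradiated values were the liver-bright replicates 1 and 2. Its difference was -1.72 ± 0.43 (adjusted p 0.0103, and 0.0577 without WT 8 Gy replicate 1). Fen1, the nuclease that trims the fragments, had a difference of -0.35, and Rpa2, part of the single-strand binding complex, of -0.16. Rpa2 was detected on 2 of 6 controls and on 5 of 5 irradiated arrays, and passed the filter only through the irradiated WT group.

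In nucleotide supply, Rrm2, the regulated small subunit of ribonucleotide reductase, was lower at 8 Gy, with a difference of -1.34 ± 0.35 (adjusted p 0.0116). It ran from 0.34 to 2.26 (median 1.88) at 0 Gy and read -0.19, -0.09, 0.35, 0.41 and 0.73 at 8 Gy. Replicate 5 at 0 Gy again was the only control within the irradiated range. Its partner Rrm1 had a difference of -0.54, thymidine kinase Tk1 of -0.49, thymidylate synthase Tyms of -0.30 and the dUTPase Dut of 0.15, none called. Without the 4 liver-bright arrays, limma called Tk1 lower (-1.41, adjusted p 0.041). Tk1 was detected on 3 of 6 controls and on 3 of 5 irradiated arrays. The p53-dependent small subunit gene Rrm2b was detected on 0 arrays with either of its 2 probes. No origin or polymerase gene was called, with differences of -0.56 (Cdt1), 0.17 (Orc6), -0.08 (Prim1), -0.04 (Prim2) and -0.18 (Pold1). Orc6, Prim1 and Prim2 were each detected on 3 of 6 controls and on 5 of 5 irradiated arrays. Their control values lie partly at background, so these differences near 0 do not show that the genes were unchanged. The clamp Pcna had a difference of -0.16 (95% interval -1.10 to 0.77), and its 4 tested loader subunits, Rfc1, Rfc2, Rfc4 and Rfc5, had differences from -0.41 to 0.65, none called.

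These calls depended on how arrays were scaled and corrected. With normexp background correction 0 of 32 members were called, at differences from -2.50 (E2f2, adjusted p 0.139) to -0.26 (Lig1), beside 1.29% of all genes called lower. When arrays were scaled to 7 spike-in probes, the median of all genes moved from -0.02 to 1.25, and 1 member (E2f2, -2.79) was called lower and 4 (Cdc45, Dut, Rfc1 and Rfc5) higher, beside 1.08% and 26.7% of all genes. The 6 genes had differences below 0 under each of the 23 or 24 alternatives in which they were tested. Within scan day 1 (1 irradiated and 3 control arrays) and scan day 2 (3 and 2), the differences of E2f2 were -4.69 and -3.66, those of Mcm2 -2.10 and -1.99, and those of Rrm2 -1.99 and -0.99.

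**Figure D4:**
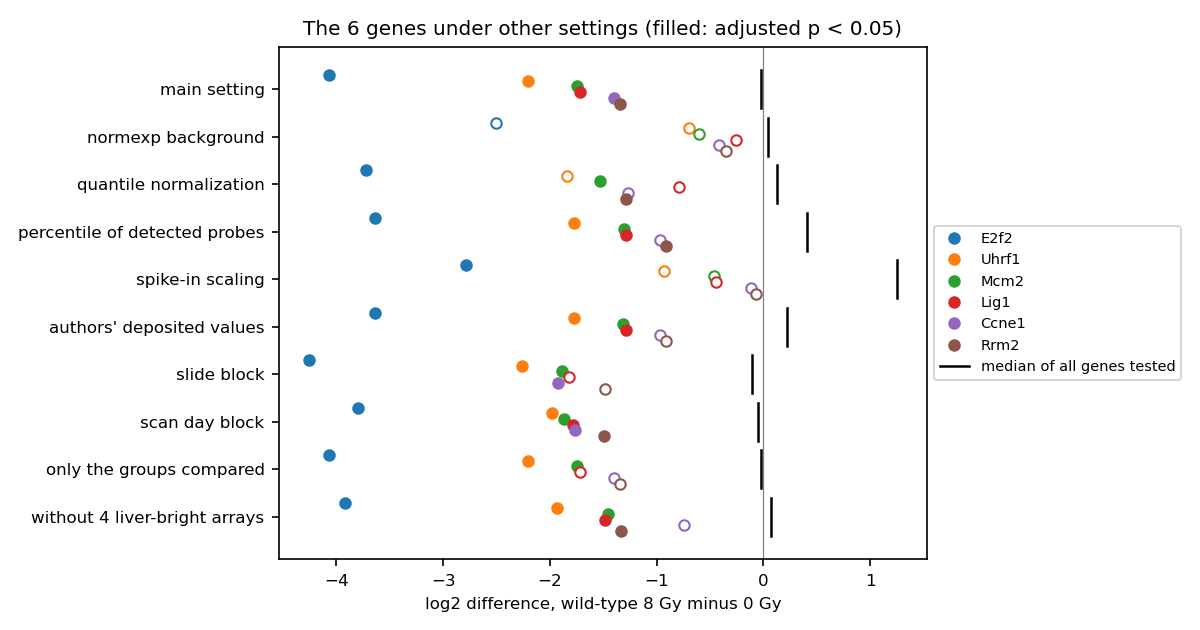
Log2 difference between WT blood at 8 and 0 Gy (x axis) for the 6 members under 10 settings (y axis), filled where the adjusted p was under 0.05, with a vertical bar at the median of all genes tested. No point crosses to the right of that bar, the normexp points are all open, and spike-in scaling moves the bar to 1.25.

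In Atm blood at 4 Gy, 0 of 32 members were called in limma's test, beside 0.165% of all genes called lower and 0.0726% called higher. At an unadjusted p under 0.05, 3 members were lower and 0 higher, beside 9.06% and 3.0% of all genes. These were E2f2, Mcm2 and Pold1, the catalytic subunit of polymerase delta. Means were below 0 for 22 of 32 members, beside 62.1% of all genes, and the median over the members was -0.33, beside -0.16 over all genes. That median was -0.37 to -0.19 with 1 array left out, the value nearest 0 being without Atm 4 Gy replicate 6 (-0.11 over all genes). It was -0.02 within scan day 1 and -0.43 within scan day 3. E2f2 read 7.56, 7.32, 7.60, 7.10 and 8.34 at 0 Gy and ran from 4.77 to 7.0 (median 5.84) at 4 Gy. The groups did not overlap, with a difference of -1.77 ± 0.53 and an adjusted p of 0.111. Mcm2 read -0.53, -0.22, -0.51, 0.17 and -0.57 at 0 Gy and ran from -1.96 to -0.51 (median -1.57) at 4 Gy, where it was detected on 2 of 6 arrays. Its difference was -1.07 (95% interval -1.78 to -0.36, adjusted p 0.148). Pold1 read 1.51, 1.07, 0.82, 1.01 and 0.81 at 0 Gy and ran from -0.32 to 0.61 at 4 Gy, so its groups did not overlap either. Its difference was -0.99 (adjusted p 0.326). Separation towards lower values held for 2 members, E2f2 and Pold1, and towards higher values for 0, beside 1.7% and 0.435% of all genes. With the authors' deposited values in place of the scanner signals, E2f2 (-1.91) and Mcm2 (-1.21) were called, beside 1.61% of all genes called lower. With spike-in scaling, which moved the median of all genes to -1.66, 26 members were called lower, beside 71.1% of all genes.

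In Scid blood at 3 Gy, again 0 of 32 members were called, beside 1.02% of all genes called lower and 0.0594% called higher. At an unadjusted p under 0.05, 8 members were lower and 0 higher, beside 7.92% and 1.66% of all genes. Of the 8, 5 were ring subunits, Mcm2 to Mcm6, and the others were E2f2, Uhrf1 and Prim1, the catalytic subunit of primase. Among the members, 26 of 32 means were below 0, beside 49.3% of all genes, and the median was -0.43, beside 0.01 over all genes. It was -0.59 to -0.37 with 1 array left out, -0.84 within scan day 1 and 0.35 within scan day 2, whose only control was replicate 5. The ring genes had differences of -0.90 (Mcm2), -1.37 (Mcm3), -1.11 (Mcm4), -1.25 (Mcm5), -0.76 (Mcm6) and -0.58 (Mcm7), with adjusted p from 0.336 to 0.601. Of the 5 irradiated arrays, Mcm2 and Mcm5 were detected on 1, Mcm3 on 3, Mcm4 on 4 and Mcm6 and Mcm7 on all, so the low values of Mcm2, Mcm3 and Mcm5 lie near the limit of detection. Mcm6 read 1.86, 1.94, 2.24, 2.74 and 2.32 at 0 Gy and 1.69, 1.18, 1.49, 1.84 and 1.1 at 3 Gy. These values did not overlap but met closely. Separation towards lower values held for 2 members, Mcm6 and Prim1, and towards higher values for 0, beside 2.23% and 0.455% of all genes. Mcm6 was detected on all 10 of these arrays, whereas Prim1 was detected on 0 of 5 irradiated arrays and 2 of 5 controls, so its separation is one of signals largely at background. Without Scid 0 Gy replicate 1, 3 members separated lower and 1 higher, beside 2.9% and 1.23% of all genes, and without replicate 5, 8 separated lower, beside 6.4%.

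Uhrf1 read 0.26, -0.18, -0.54, -0.62 and -2.35 in unirradiated Scid blood and -1.53, -1.82, -3.62, -2.67 and -2.63 at 3 Gy, where it was detected on 0 of 5 arrays. Only replicate 5 of the controls lay within the irradiated range. Against the lowest signals detected on those arrays, Uhrf1 was at least 1.85-fold lower at 3 Gy, with measured group means of -0.69 and -2.45 and an adjusted p of 0.0856, which did not pass. E2f2 read 8.58, 8.41, 7.68, 7.49 and 5.17 at 0 Gy and 6.66, 6.81, 4.40, 6.14 and 5.39 at 3 Gy. Here too replicate 5 was the control among the irradiated values, and the difference was -1.59 ± 0.56 (adjusted p 0.211). Without that control, 3 members were called lower, E2f2 at -2.16 (adjusted p 0.0136), Uhrf1 at -2.18 (0.0106) and Mcm4 at -1.63 (0.038), beside 2.57% of all genes called lower. With the authors' deposited values, Uhrf1 (-2.38), Mcm5 (-2.43) and Mcm4 (-1.83) were called, beside 1.97% of all genes called lower. Without the 4 liver-bright arrays, none of them from Scid mice, Uhrf1 was called (adjusted p 0.0435), beside 1.69%. On scan day 1 (2 irradiated and 4 control arrays) E2f2 differed by -1.31, and on scan day 2 (2 irradiated arrays and control replicate 5) by 0.10.

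Prim1, Rrm1, Rpa2 and Tk1 were also detected on 0 of 5 Scid arrays at 3 Gy, and at 0 Gy on 2, 3, 1 and 2 of 5. Their measured differences were -1.21 (Prim1), -0.70 (Rrm1), -0.42 (Rpa2) and -0.80 (Tk1), with adjusted p from 0.291 to 0.82, none called. The highest mean difference in Scid was that of Cdc45, which read 2.61, 1.94, 1.80, 0.40 and 1.80 at 0 Gy and 2.68, 3.16, 2.13, 2.45 and 2.63 at 3 Gy. The irradiated arrays lay in or above the upper part of the control range, with a difference of 0.90 (adjusted p 0.577).

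The other genes called in WT were spread as follows in the mutants. Lig1 read 9.34, 9.0, 9.88, 9.87 and 9.82 in unirradiated Atm blood and ran from 7.72 to 9.84 (median 9.44) at 4 Gy, the lowest being the liver-bright replicate 3. In Scid it read 10.73, 9.98, 9.67, 9.07 and 10.37 at 0 Gy and 9.87, 10.22, 9.02, 9.75 and 10.29 at 3 Gy. Both pairs of groups overlapped, with differences of -0.47 and -0.14. Rrm2 read 1.76, 1.62, 1.58, 1.06 and 1.5 in Atm at 0 Gy and ran from 0.29 to 2.43 (median 1.44) at 4 Gy, on both sides of the controls. In Scid it read 2.16, 2.24, 1.94, 1.45 and 1.91 at 0 Gy and 1.47, 1.98, 1.18, 1.69 and 1.12 at 3 Gy, with overlap and a difference of -0.45. Ccne1 read 0.17, 0.49, 0.75, 0.68 and 1.42 in Atm at 0 Gy and ran from 0.23 to 1.47 (median 0.93) at 4 Gy. In Scid it read 1.99, 0.99, 0.62, 0.44 and 2.02 at 0 Gy and 0.49, -0.46, -0.18, 1.84 and 0.71 at 3 Gy. Its groups overlapped in both genotypes. Uhrf1 read -0.72, -0.02, -0.25, -0.60 and -1.13 in Atm at 0 Gy and ran from -1.98 to -0.72 (median -1.41) at 4 Gy, with overlap and a difference of -0.85 (95% interval -1.85 to 0.15). Mcm2 in Scid read -0.28, -0.42, -0.68, -0.86 and -1.12 at 0 Gy and -0.99, -1.91, -1.73, -2.06 and -1.16 at 3 Gy. Of the irradiated arrays only replicate 1 lay above the lowest control.

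The 3 genotypes' own comparisons use separate control mice. In them 17 of 32 members (53.1%) had a mean below 0 in all 3, beside 23.0% of all genes, and 2 members, Cdc45 and E2f1, had a mean above 0 in all 3. E2f2, Mcm2, Uhrf1, Lig1 and Rrm2 were among the 17, and Ccne1 was not, with a difference of 0.24 in Atm. The response was then compared between genotypes as a difference of differences. No member and no gene at all was called in any of these 3 tests (0.0% each). At an unadjusted p under 0.05, limma gave 3 members with a less negative response in Atm than in WT and 0 with a more negative one, beside 5.09% and 3.46% of all genes. The same counts were 2 and 0 for Scid against WT, beside 3.84% and 3.29%, and 0 and 0 for Scid against Atm, beside 2.35% and 1.87%. For E2f2 the response in Atm minus that in WT was 2.30 (95% interval 0.76 to 3.83, adjusted p 0.407), and the response in Scid minus that in WT was 2.48 (0.91 to 4.05, adjusted p 0.679). Both differences of responses use the same WT mice. The corresponding values were 1.64 for Ccne1 and 1.29 for Rrm2 in Atm (adjusted p 0.481 and 0.477) and 1.58 for Lig1 in Scid (adjusted p 0.679). With slide as a block, E2f2 was called in the comparison of Atm with WT (3.35, adjusted p 0.0433). With spike-in scaling 27 members had a more negative response in Atm than in WT, beside 90.1% of all genes. The calls in WT alone therefore do not show that the genotypes differ.

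Without irradiation, no member was called in either mutant against WT, nor was any other gene (0.0% in both comparisons). The medians over the members were 0.13 in Atm and 0.01 in Scid, beside -0.01 and 0.09 over all genes. At an unadjusted p under 0.05, limma gave 1 member higher and 0 lower in Atm, beside 1.64% and 0.62% of all genes, and 0 higher and 1 lower in Scid, beside 1.75% and 1.54%. Both were Pold1, which was 0.90 higher in Atm (95% interval 0.03 to 1.77) and differed by -0.95 in Scid (-1.81 to -0.08). Both comparisons use the same WT controls, in which Pold1 ran from -1.27 to 1.32.

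The members that fell in WT can be set beside their promoters. The RefSeq promoter table used here, in build GRCm38.p6, holds 33 of the 41 members, as windows of 300 bases, 250 before and 50 after each annotated start. Windows were searched on both strands for 4 forms of the E2F site, TTTGGCGC, TTTCCCGC, TTTGCCGC and TTTCGCGC, which can overlap each other on opposite strands, and for CCAAT. An E2F form was found for 13 of 33 members, or in 33.3% of their windows, beside 2.26% of all 32851 windows, and CCAAT in 59.0% beside 37.4%. Of the 6 members that fell, 3 had an E2F form (E2f2, Lig1 and Uhrf1), and 6 of the 22 other tested members with a window had one (Cdt1, Mcm3, Mcm5, Mcm6, Mcm7 and Pold1). Mcm2, Ccne1 and Rrm2 had none in these windows. A match of letters is a description of the window and says nothing of binding.

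The sites of the members that fell are shown, with 1 site each of 3 members that were not called in WT. Windows are of 30 bases with the E2F form in capitals, 5′ to 3′ on the strand of the gene. Mcm3 has another form, TTTGGCGC, which begins 38 bases after its start and lies outside its printed window. The E2f2 and Lig1 sites begin 39 and 26 bases after an annotated start, and that of Uhrf1 begins 185 bases before its second start.
E2f2 (chr4:136172294-136172323, + strand): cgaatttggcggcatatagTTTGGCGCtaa
Lig1 (chr7:13278841-13278870, + strand): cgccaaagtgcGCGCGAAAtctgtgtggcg
Uhrf1 (chr17:56304117-56304146, + strand): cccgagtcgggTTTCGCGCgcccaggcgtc
Cdt1 (chr8:122568035-122568064, + strand): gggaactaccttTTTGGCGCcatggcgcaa
Mcm3 (chr1:20820275-20820304, - strand): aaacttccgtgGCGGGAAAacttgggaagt
Pold1 (chr7:44548766-44548795, - strand): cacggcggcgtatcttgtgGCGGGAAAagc

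The bases before the start are shown for E2f2, the member with the largest difference, and for Mcm5 and Mcm6, whose differences in WT were near 0, with E2F forms and CCAAT on either strand in capitals. Upstream of its first start E2f2 has CCAAT alone, 13 bases before the start. Mcm6 has 3 E2F forms, 110, 106 and 47 bases before its start, the first 2 of which overlap, and 2 CCAAT on the opposite strand. Mcm5 has an overlapping pair of E2F forms. Its printed stretch ends before the first base of the gene in RefSeq, short of the start used for its window. It leaves out a CCAAT 22 bases before that start and another 6 bases after it. E2f2 itself has 1 E2F form, after its start.
E2f2 (chr4:136172024-136172273, + strand): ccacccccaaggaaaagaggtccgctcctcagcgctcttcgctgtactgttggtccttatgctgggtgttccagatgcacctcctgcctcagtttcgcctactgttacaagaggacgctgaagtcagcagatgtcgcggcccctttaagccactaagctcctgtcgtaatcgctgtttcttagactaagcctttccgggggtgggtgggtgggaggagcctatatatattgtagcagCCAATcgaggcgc
Mcm6 (chr1:128359706-128359955, - strand): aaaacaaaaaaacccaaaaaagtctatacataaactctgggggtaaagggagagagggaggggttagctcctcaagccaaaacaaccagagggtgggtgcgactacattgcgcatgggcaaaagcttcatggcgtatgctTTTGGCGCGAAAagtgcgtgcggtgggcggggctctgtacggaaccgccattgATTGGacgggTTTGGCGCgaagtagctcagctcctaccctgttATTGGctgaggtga
Mcm5 (chr8:75109259-75109467, + strand): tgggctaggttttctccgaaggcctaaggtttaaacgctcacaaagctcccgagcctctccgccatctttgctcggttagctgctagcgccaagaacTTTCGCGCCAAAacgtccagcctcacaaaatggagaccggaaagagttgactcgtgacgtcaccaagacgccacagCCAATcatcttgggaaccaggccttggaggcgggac

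Beyond the members, 46 of 68 other replication and S-phase genes were tested, and 6 fell in WT (13.0%, beside 6.07% of all genes) while 0 rose. They were Ccna2 (-3.84 ± 0.43, adjusted p 4.47e-07), which encodes the cyclin A of S phase, Tfdp2 (-3.21), a dimerisation partner of E2F factors, Dnmt1 (-2.03), the maintenance methyltransferase, and Rb1 (-1.51), Asf1b (-1.28) and Gins3 (-0.99). The last 3 were the least stable: the call of Rb1 was lost in 12 of 24 alternatives, that of Asf1b in 14 of 23, with the sign turned in 1 more, and that of Gins3 in 15 of 24, turned in 2 more. With 1 array left out, Rb1 was not called without WT 0 Gy replicates 1, 3 or 4 or WT 8 Gy replicates 1 or 2 (adjusted p up to 0.102), Asf1b without WT 0 Gy replicates 1, 3, 4 or 6 or WT 8 Gy replicates 1 or 2 (up to 0.113), and Gins3 without WT 0 Gy replicates 3, 4 or 6 or WT 8 Gy replicates 1, 2 or 3 (up to 0.115). Ccna2 ran from 1.73 to 3.85 (median 3.44) in WT at 0 Gy and from -1.78 to -0.04 at 8 Gy, so its groups did not overlap. No gene of this list was called in Atm or Scid, where the unadjusted p was under 0.05 for 7 and 8 genes lower (beside 9.06% and 7.92% of all genes) and for 1 and 0 higher (beside 3.0% and 1.66%). Ccna2 had differences of -1.72 in Atm (adjusted p 0.0673) and -1.69 in Scid (0.0519). The list's medians were -0.13 in WT, -0.24 in Atm and -0.38 in Scid.

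Of 14 tested mitotic genes 6 fell in WT, beside 6.07% of all genes. They were Nusap1 (-4.02), which bundles spindle microtubules, Ube2c (-3.23), which feeds the anaphase-promoting complex, Ccnb2 (-2.87), Mki67 (-2.55), Tpx2 (-1.79) and Birc5 (-1.72), and the list's median was -0.93. Nusap1 was the 1 gene of this list called in Atm (-2.05, adjusted p 0.0425) and in Scid (-2.02, adjusted p 0.0233). Those 2 calls were lost in 7 of 11 and 4 of 10 fits that left out 1 array, at differences from -1.86 to -2.27 and from -1.71 to -2.35, and that of Tpx2 in WT was lost without WT 0 Gy replicate 3 (adjusted p 0.0537). Cdkn1a, the inhibitor of cyclin-dependent kinases induced by p53, rose in WT (3.86 ± 0.51, adjusted p 4.53e-06) and in Scid (3.22 ± 0.54, adjusted p 0.00304). In Atm its difference was 1.21 (adjusted p 0.316). It ran from -2.38 to -0.85 in WT at 0 Gy and from 1.65 to 3.27 at 8 Gy.

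Some markers of blood cell types also moved. In WT 14 of 20 erythroid genes fell (median -2.87) and 4 of 11 B cell genes fell (median -1.17), beside 6.07% of all genes. The B cell genes were Vpreb3 (-4.35), Ebf1 (-2.42), Cr2 (-2.35) and Fcer2a (-2.23). At 8 Gy Ebf1 and Fcer2a were detected on 1 of 5 arrays and Vpreb3 on 2, so their low values lie near the limit of detection. Cd79b and Cd79a, the brightest B cell genes, had differences of -0.08 and -1.24, not called. In Atm 1 of 20 erythroid genes fell (median -1.18) and 1 of 11 B cell genes, beside 0.165% of all genes. In Scid the counts were 7 (median -1.40) and 0, beside 1.02%. Alas2 and Fech, the brightest of the erythroid list and both enzymes of heme synthesis, had differences of -1.48 (adjusted p 0.0127) and -3.04 (7.47e-06) in WT. The erythroid list did not fall as a whole. Epor, Tal1 and Gata1 had differences above 0 in WT, of 1.004, 0.52 and 0.32, none called (adjusted p 0.215, 0.602 and 0.723). The remaining erythroid genes that were not called had differences from -0.78 to -0.29. The summed signal of the 20 erythroid genes (log2) ran from 11.55 to 14.05 in WT at 0 Gy and from 10.57 to 11.99 at 8 Gy, from 12.67 to 13.32 and 11.52 to 13.00 in Atm, and from 12.76 to 14.03 and 12.25 to 13.49 in Scid. Their medians did not overlap between the WT groups (2.22 to 4.31 against 0.07 to 0.92), whereas the median over the members did (-0.31 to 0.61 against -0.51 to 0.14). Of 8 monocyte genes 1 rose in WT (Cd14, 2.07), beside 1.13% of all genes called higher. Of 12 T cell genes 1 fell (Cd8a, -2.59), which is near the 6.07% of all genes called lower. Cd8a was detected on 1 of the 5 irradiated arrays. No neutrophil, NK cell, platelet, myeloid precursor, hepatocyte or heart muscle gene was called in any of the 3. The part of these cell types in the members' differences was not tested. In Scid the median over the members was -0.95 to -0.49 on the 3 Gy arrays, and on the controls it was -0.89 on replicate 5 and -0.09 to 0.42 on the others.

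**Figure D5:**
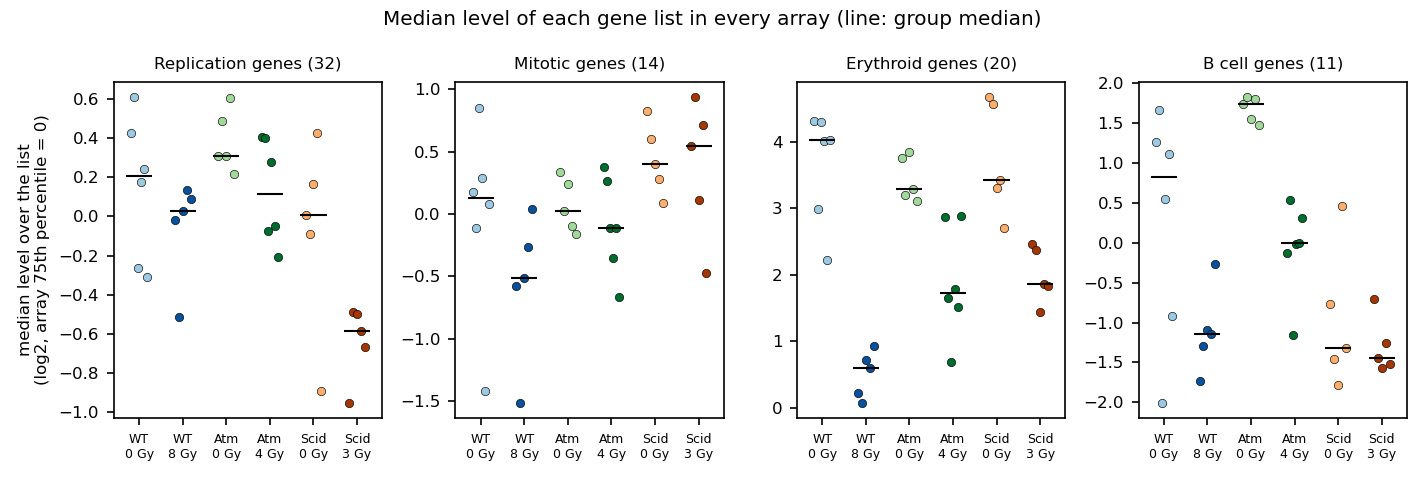
Median level of the 32 tested members, 14 mitotic, 20 erythroid and 11 B cell genes (y axis, log2 relative to the 75th percentile of the array, each panel with its own scale) in each of the 32 arrays by group (x axis), with a line at the group median. The erythroid medians at 8 Gy in WT, from 0.07 to 0.92, lie below the controls, from 2.22 to 4.31, while the members' medians overlap.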

How the data were processed

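Whole blood of 32 mice was measured on 1 array per mouse, and the labels' genotype and dose gave the groups. The members and all gene lists were chosen with earlier results of these data known. For each array the authors deposited the scanner's output, in which every spot has a processed intensity, background-subtracted and detrended by Agilent Feature Extraction (version 12.0.2 per the submitters' processing notes, 11.5.1.1 per the file headers), and a table of log2 values of the same arrays, deposited by the authors, of which 98.1 to 99.1% lay within 0.01 of the log2 signal plus a constant per array; how that constant was set is not given in the sources used here.

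Spots marked as non-uniform or population outliers (125 to 324 per array) were dropped and a probe's spots averaged. Each array's 75th percentile was subtracted from its log2 signals. Of 39429 probes, the 18367 detected (well above background) on 4 or more arrays of one group were kept, and each gene was represented by its brightest kept probe. Positions of probes are in mm9, per the file headers. The 6 group means over all 32 arrays were fitted with limma 3.58.1 in R 4.3.3 and 8 contrasts tested (two-sided), with Benjamini-Hochberg adjustment over 15159 genes. The scripts were tested on simulated data. "At least" folds set the bright group's mean against a floor for each dim array, its lowest detected signal or the probe's own value if that was higher. Signal over background stands in for depth, and the number of arrays limits the precision. All members may be named; of the other lists, up to 3 called genes of largest change per comparison, the 2 brightest genes per cell type, and Cdkn1a, Mki67, Rrm2b and Ccna2. Other called genes of the replication, mitotic, B cell, T cell and monocyte lists, and Epor, Tal1 and Gata1, were named after their values were seen. Alternatives covered background correction, scaling, the filter, probe averaging, slide, scan day and replicate blocks, and left-out arrays. Replicates are separate mice.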

Additional observations from a re-analysis of the deposited data

Results flagged for a closer look

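In 192 groups of values (32 members by 6 groups), 6 held an array far from the rest of its group, where chance alone gives about 1 in 20. Of these, 3 were lowest values of WT 8 Gy replicate 2, a liver-bright array: Mcm4 at -1.19 (next value 0.09), Mcm5 at -1.98 (next -0.91) and Prim2 at -2.50 (next -1.57). Chaf1b was lowest in WT 0 Gy replicate 5, also liver-bright, at 0.37 (next 0.99). In Scid 0 Gy replicate 5, Fen1 was lowest at -2.51 (next 0.15) and Rfc5 highest at 2.43 (next 0.84). The causes were not tested.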

How the results depend on the processing

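The direction of the 6 members called in WT held in all 23 or 24 alternatives tested for each, while the call was lost in 1 (E2f2), 3 (Uhrf1), 2 (Mcm2), 6 (Lig1), 15 (Ccne1) and 5 (Rrm2). With quantile normalization E2f2, Mcm2 and Rrm2 kept the call, and with only the groups compared E2f2, Mcm2 and Uhrf1 did. Without the 4 liver-bright arrays Tk1 was called and Ccne1 was not. The count called in WT was 0 with normexp, 5 with spike-in scaling (1 lower, 4 higher, beside 26.7% of all genes) and 4 to 6 leaving out 1 array. In Atm it was 26 with spike-in scaling (beside 71.1% of all genes) and 2 with the authors' deposited values (beside 1.61%). In Scid it was 3 with the authors' values (beside 1.97%), 1 without the 4 liver-bright arrays and 0 to 3 leaving out 1 array, with the 3 reached without Scid 0 Gy replicate 5 (beside 2.57%). The difference of responses gave 27 called for Atm against WT and 6 for Scid against Atm with spike-in scaling (beside 90.1% and 35.9% of all genes), and 1 for Atm against WT with the slide block. Where no share is given, the count cannot be set against the rate over all genes under that setting.

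Members whose groups did not overlap are given beside the share of all genes that separated the same way. In WT they numbered 0 lower with normexp (0.805%), 1 with the percentile of probes detected on all arrays (3.45%), 3 with spike-in scaling (1 lower, 1.05%, and 2 higher, 9.47%), 1 with only such probes tested (7.57%), 5 without the 4 liver-bright arrays (1742 of 15159 genes) and 2 to 5 leaving out 1 array, the 5 without WT 0 Gy replicate 5 (9.24%). In Atm they numbered 0 with normexp (0.0792%), 1 with quantile normalization (1.58%), 1 with the detected percentile (0.884%), 11 with spike-in scaling (24.3%) and 1 with probes detected on all arrays (2.48%), and 2 to 3 leaving out 1 array. In Scid they numbered 1 with the detected percentile (higher, 2.37%), 0 with spike-in scaling (0.317%), 4 with the authors' values (3.73%), 1 with probes detected on all arrays (4.49%) and 2 to 8 leaving out 1 array, the 8 without Scid 0 Gy replicate 5 (6.4%).

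Some differences that were not called turned direction. In Atm, Mcm2 was 0.072 with normexp, Ccne1 -0.046 with normexp, -1.26 with spike-in scaling, -0.31 with the slide block and -0.23 with the scan day block, and Rrm2 0.20 with the detected percentile, 0.025 with the scan day block, 0.058 with the replicate block, 0.0073 without the liver-bright arrays and -0.25 to 0.18 leaving out 1 array. In Scid, Lig1 was 0.15 with quantile normalization, 0.054 with the detected percentile, 0.15 with spike-in scaling and -0.36 to 0.067 leaving out 1 array. Of the other genes named in WT, Asf1b was 0.0015 with spike-in scaling, and Gins3 0.28 under the same scaling and 0.41 with normexp. The causes were not tested.

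Replicate numbers did not pair the mice, since deviations of same-numbered arrays correlated from -0.73 to 0.35 across doses. With the replicate number as a block, E2f2, Uhrf1, Mcm2, Lig1 and Rrm2 kept their call in WT, and Ccne1 did not. Signal over background limits Uhrf1, Prim1, Rrm1, Rpa2, Tk1, Mcm2, Mcm3 and Mcm5 in Scid at 3 Gy. It also limits Orc6, Prim1, Prim2, Rpa2, Tk1 and Mcm10 in WT at 0 Gy.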
